A study of Caenorhabditis elegans with 2 samples.

Results

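The regions described here are 326 autosomal intergenic sites that lie away from promoters and stand high in a list of NHR-237 ChIP-seq regions from whole L4 larvae of Caenorhabditis elegans. ChIP-seq recovers and sequences the DNA attached to a chosen protein, and a region is a stretch where the recovered DNA piles up around a summit. The authors' name for the list says that it holds peaks and background together. A region, whether a member or lower-ranked, is therefore not by itself a called binding site. All 26787 regions of the list made from both replicates together were ordered by their signal, the authors' height for each region, and the members were taken from rank 1 to 2000. A member's summit lies on an autosome, inside no protein-coding gene and outside the interval from 1000 bp upstream to 200 bp downstream of every protein-coding transcript start. Of 1585 autosomal regions in those ranks, 326 met the rule. They are set beside 4215 regions of the same class that ranked lower. The members were chosen by this pooled signal, so their signal is given as a description only. Both samples are biological replicates of 1 group, strain OP228, which has the genotype unc-119(ed3) III; wgIs228 and carries a transgene of NHR-237 fused at its C terminus to GFP-FLAG. The worms were L4 larvae of both sexes, pooled, and every cell type of the body is in the material. The labels used here do not name the promoter that drives the transgene. No second genotype, stage or factor was analysed here, and sites shared with other factors or with untagged worms cannot be told apart from sites of NHR-237.

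NHR-237 is one of the large nuclear hormone receptor family of this worm, transcription factors with a zinc-finger DNA-binding domain that in many family members reads a short half-site such as AGGTCA. Worm genes are compact and most known regulatory DNA lies close upstream of a gene, while distal elements lie farther out in the gaps between genes. These gaps also hold genes for small RNAs, long non-coding RNAs and pseudogenes. Runs of alternating G and A are known from worm regulatory DNA, where the zinc-finger protein EOR-1 is one factor that binds them.

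The sequences below are shown because base composition and short repeats were among the features in which the members differed from the lower-ranked regions. Each runs from 100 bp before a summit to 100 bp after it on the plus strand, 5' to 3', in assembly WBcel235 (ce11) from the RefSeq genome. Capitals mark 4 motifs or their reverse complements, which are the GA repeat GAGAGA, the promoter motif CTGCGTC, the alternating word GCGCGC and the nuclear receptor half-site AGGTCA. The first is the strongest member, at chrV:1151392-1151592, and the next holds a spliced leader RNA gene, at chrII:5543585-5543785. The following members lie at chrIII:4282052-4282252, chrII:9282951-9283151, chrIV:14033858-14034058, chrV:10466690-10466890 and chrII:11635911-11636111. The gcy-12/vhp-1 window, at chrII:5321941-5322141, has the longest unbroken GA run among the members, and the col-3/T28C6.7 window, at chrIV:8826079-8826279, is a strong member without GAGAGA. The last pair are the lowest-ranked member, at chrIV:15818117-15818317, and the first region of the class beyond rank 2000, at chrII:5341029-5341229.
cutl-22/cmd-1: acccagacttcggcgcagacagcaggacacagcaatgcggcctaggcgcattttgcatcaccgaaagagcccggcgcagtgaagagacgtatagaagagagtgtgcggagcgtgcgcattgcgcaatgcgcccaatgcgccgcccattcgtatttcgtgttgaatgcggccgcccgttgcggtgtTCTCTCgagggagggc
C17C3.24/ins-13: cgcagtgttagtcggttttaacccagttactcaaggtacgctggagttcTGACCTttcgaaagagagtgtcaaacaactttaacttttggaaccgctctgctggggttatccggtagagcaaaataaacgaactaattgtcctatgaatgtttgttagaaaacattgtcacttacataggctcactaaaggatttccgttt
sup-26/R10E4.3: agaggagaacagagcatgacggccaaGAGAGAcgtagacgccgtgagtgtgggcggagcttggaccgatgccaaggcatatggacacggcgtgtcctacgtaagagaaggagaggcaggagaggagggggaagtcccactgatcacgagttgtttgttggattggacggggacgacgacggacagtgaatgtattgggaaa
gldi-3/mtrr-1: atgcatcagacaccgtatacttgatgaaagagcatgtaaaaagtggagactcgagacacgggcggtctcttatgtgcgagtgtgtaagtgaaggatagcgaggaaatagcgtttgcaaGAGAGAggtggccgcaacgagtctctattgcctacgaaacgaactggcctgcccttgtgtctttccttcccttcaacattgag
irld-55/Y37A1B.7: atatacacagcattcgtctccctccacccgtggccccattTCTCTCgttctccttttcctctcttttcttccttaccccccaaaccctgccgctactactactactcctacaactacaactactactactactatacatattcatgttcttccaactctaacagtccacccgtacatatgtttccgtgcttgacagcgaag
chw-1/egl-9: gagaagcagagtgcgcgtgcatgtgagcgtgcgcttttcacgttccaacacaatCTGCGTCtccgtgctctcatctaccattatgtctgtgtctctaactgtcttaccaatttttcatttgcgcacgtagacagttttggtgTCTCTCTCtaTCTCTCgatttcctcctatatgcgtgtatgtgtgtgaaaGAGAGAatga
din-1/ghi-1: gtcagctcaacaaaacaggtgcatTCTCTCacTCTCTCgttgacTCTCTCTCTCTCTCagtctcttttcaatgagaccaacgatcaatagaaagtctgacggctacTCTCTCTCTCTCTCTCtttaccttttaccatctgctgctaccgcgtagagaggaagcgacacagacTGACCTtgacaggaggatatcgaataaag
gcy-12/vhp-1: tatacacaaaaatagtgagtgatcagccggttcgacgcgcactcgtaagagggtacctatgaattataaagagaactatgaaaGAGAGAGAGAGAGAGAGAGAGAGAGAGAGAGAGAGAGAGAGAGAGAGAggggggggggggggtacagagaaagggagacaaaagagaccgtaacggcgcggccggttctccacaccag
col-3/T28C6.7: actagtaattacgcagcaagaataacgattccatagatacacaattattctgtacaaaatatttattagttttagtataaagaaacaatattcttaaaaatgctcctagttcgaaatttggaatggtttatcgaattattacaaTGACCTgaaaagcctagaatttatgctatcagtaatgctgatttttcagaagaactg
the lowest-ranked member, beside daf-38: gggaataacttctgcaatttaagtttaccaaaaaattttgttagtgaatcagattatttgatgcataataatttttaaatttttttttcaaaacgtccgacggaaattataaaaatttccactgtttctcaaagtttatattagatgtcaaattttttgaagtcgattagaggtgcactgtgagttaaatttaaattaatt
vhp-1/F09E5.14: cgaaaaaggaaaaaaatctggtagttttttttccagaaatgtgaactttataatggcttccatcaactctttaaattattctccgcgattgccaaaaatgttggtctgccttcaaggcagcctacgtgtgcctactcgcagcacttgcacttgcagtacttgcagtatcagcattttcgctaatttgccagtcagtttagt

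The member of the highest signal, 92.18 at rank 39, lay at chrV:1151322-1151661 in the middle of a 9769 bp gap, 4991 bp from cutl-22, which encodes a ZP domain protein, and 4779 bp from cmd-1, which encodes calmodulin. Its summit was inside the long non-coding RNA gene linc-128, and 60.7% of the window of 100 bp on either side of the summit was G or C. It was high in both replicate lists, with a signal of 61.15 at rank 35 in replicate 1 and 33.5 at rank 42 in replicate 2. The next member, at rank 68 with signal 58.42 (chrI:4701230-4701569), lay inside linc-91, between chd-7, which encodes a chromodomain helicase, and W09C3.4, annotated as a putative RNA polymerase III subunit. It too was high in both replicates, at ranks 70 and 79.

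The member at rank 76, with signal 55.63 (chrII:5543515-5543854), had its summit inside sls-2.2, a gene for an SL2 RNA, the small RNA that supplies the leader trans-spliced onto downstream messages of worm operons. The insulin-like peptide gene ins-13 lay 827 bp away. Its signal was 19.75 at rank 345 in replicate 1 and 36.85 at rank 38 in replicate 2, and 34.3% of its 24-base words occur elsewhere in the genome. In contrast, the member at rank 80, with signal 54.91 (chrI:2639637-2639976) between F40E3.3 and mage-1, which encodes a MAGE domain protein, had signal 47.19 at rank 54 in replicate 1 and no overlapping region among the 30000 of replicate 2. In that window 42.7% of 24-base words occur elsewhere. The member at rank 83, with signal 51.57 (chrI:12039757-12040096), lay between the uncharacterized genes F58D5.7 and F58D5.5 and was at rank 89 in each replicate list.

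On chromosome III the strongest member had signal 45.96 at rank 98 (chrIII:4281982-4282321), between sup-26, which encodes an RNA-binding protein, and the uncharacterized R10E4.3, and it stood at ranks 82 and 100 in replicates 1 and 2. On chromosome IV it had signal 43.99 at rank 105 (chrIV:4727849-4728188), between K08F11.1 and the F-box gene fbxb-78. There 59.0% of 24-base words occur elsewhere, with a median of 5 copies, so that reads counted at this site could come from other copies. A further member in the same gap, at rank 531, had 86.5% of such words, and the member beside nhr-204 at rank 328 had 67.4%. These 3 are the members with repeated words over more than 50% of the window, 0.920% of members against 0.996% of lower-ranked regions.

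Of the other members among the 12 of the highest signal, the one at rank 100 (signal 45.17) lay between Y48G8AR.8 and Y48G8AR.2. Rank 144 (signal 37.98) lay between gldi-3 and mtrr-1, which encodes methionine synthase reductase, with ranks 198 and 193 in replicates 1 and 2. Rank 145 (signal 37.94) lay 38 bp beyond the 3' end of swt-3, a sugar transporter gene, and across the gap from T25B9.9, which encodes 6-phosphogluconate dehydrogenase. Rank 151 (signal 37.13) lay 50 bp from cel-mir-52, a microRNA of the miR-51 family, which is needed for embryonic development. Rank 154 (signal 36.97) lay between the 3' ends of nlp-40, a neuropeptide gene that paces defecation, and rcor-1, which encodes a REST corepressor homologue. Each of these 5 was present in both replicate lists, and the weakest position was rank 637, held by the cel-mir-52 site in replicate 2.

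Over all 326 members the signal ran from 15.91 to 92.18 with a median of 18.48 (quartiles 16.86 and 22.55), against a median of 9.278 and a maximum of 15.87 in the lower-ranked regions. Most members were near the lower end of this range. The first 500 ranks held 72 members, the next 500 held 76 and those from there to rank 2000 held 178, and 5 members had a signal over 50. The rank limit cut through a continuous distribution. The last members inside it were rank 1985 with signal 15.92 between F45E12.6 and F21D12.2, rank 1986 with 15.92 between nbet-1 and Y59E9AL.4, and rank 1995 with 15.91 beside daf-38. The first beyond it were rank 2014 with 15.87 between vhp-1 and F09E5.14, rank 2017 with 15.86 between fhod-1 and vha-16, and rank 2018 with 15.86 beside ptr-20. The authors' -log10 q value had a median of 0.963 in members and 0.0826 in lower-ranked regions, and 61 members stood at the list's maximum of 2.07.

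The authors' peaks that passed the irreproducible discovery rate (IDR), a comparison of region order between replicates, numbered 237 of 26787, or 0.885%. They were the same 237 regions as ranks 1 to 237 of the list by signal, so the signal that chose the members fixed this count too. Among the members 26 were IDR peaks, 7.98% with an exact 95% interval of 5.28 to 11.5%. A further 2 members overlapped a neighbouring IDR peak by at least 1 bp, which gave 28 or 8.59%. All 237 IDR peaks lie in the ranks from which members were taken, so 0.885% of the whole list is not a matched share.

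The replicate lists, each of 30000 regions and each made from 1 alignment, show how far single samples placed the same sites. Because both alignments fed the pooled list, they are not independent of the choice of members. With an overlap of at least 1 bp, 309 of 326 members were found in replicate 1 (94.8%, interval 91.8 to 96.9%) and 261 in replicate 2 (80.1%, 75.3 to 84.3%). Both lists held 246 members (75.5%, 70.4 to 80.0%), against 25.3% of lower-ranked regions (23.98 to 26.6%). In the replicate 1 list alone were 63 members, and in the replicate 2 list alone 15. The 2 members in neither list were rank 1268, between snt-1 and egl-27, and rank 1509, between ina-1 and tax-4, which were picked out after their values were seen.

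The order within the lists was less alike than presence. The median rank of the members found was 1831 in replicate 1 (quartiles 598 and 4981) and 3119 in replicate 2 (710 and 9855). A rank of 2000 or better was held by 163 members in replicate 1, by 106 in replicate 2 and by 55 in both (16.9%, interval 12.97 to 21.4%). These ranks come from any region that overlaps by at least 1 bp. There were 3 pairs of overlapping members, and the members of a pair can take their rank from the same replicate region. With summits within 100 bp, 40 members held such a rank in both lists (12.3%, 8.91 to 16.3%). Across the 246 members in both lists, Spearman's rho between the replicates' signals was 0.142 and Pearson's r on a log10 scale 0.211, given as a description of sites that share a library within each list. The site between gdh-1, which encodes glutamate dehydrogenase, and tgt-1 is an example, with signal 35.53 at rank 83 in replicate 1 and 5.556 at rank 8212 in replicate 2. Of the 72 members in ranks 1 to 500, which the pooled signal of both replicates placed there, 45 held a rank of 2000 or better in both lists.

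**Figure D1:**
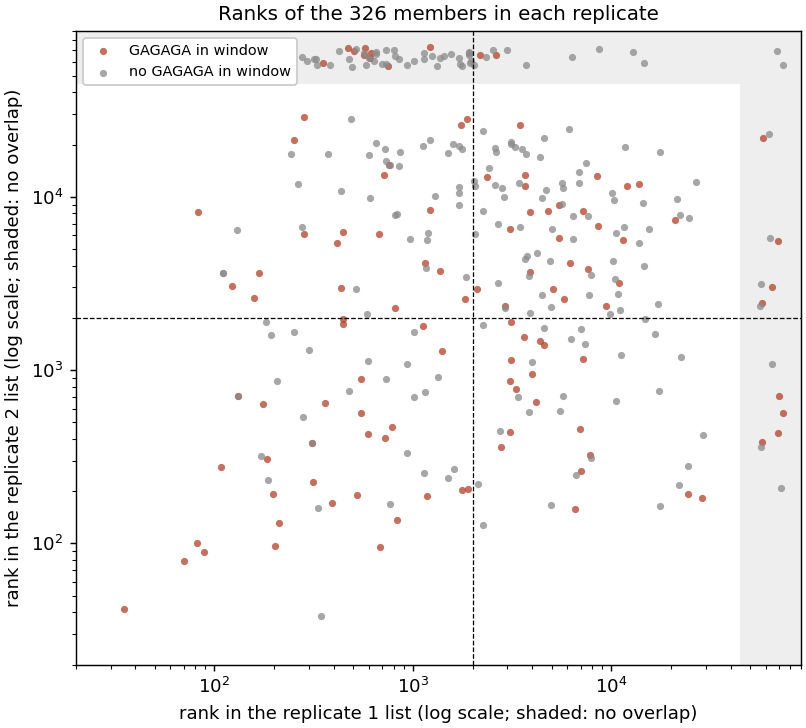
Each point is 1 of the 326 members, placed by the rank of the overlapping region in the replicate 1 list (x axis, log scale) and the replicate 2 list (y axis, log scale), red where the window holds GAGAGA and grey where it does not. Points in the shaded bands had no overlapping region in that list, and 55 members lie at rank 2000 or better in both, below and left of the dashed lines.

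Among the 15 motifs searched, the GA repeat had the widest gap in percentage points between members and lower-ranked regions. On either strand of the window of 100 bp on either side of the summit, GAGAGA was present in 116 of 326 members (35.6%, interval 30.4 to 41.1%) and in 542 of 4215 lower-ranked regions (12.9%, 11.9 to 13.9%). The same rule applied to each replicate's own list gave 29.2% against 13.1% in replicate 1 and 29.4% against 13.9% in replicate 2. Longer runs of alternating G and A, each counted from its first G, were rarer in both sets. A run of 8 or more bases was found in 11.7% of members and 2.66% of lower-ranked regions, and a run of 12 or more in 4.29% and 0.830%. The longest among the members, 49 bases, was the one printed above between gcy-12, a receptor guanylate cyclase gene, and vhp-1, a MAP kinase phosphatase gene, although the longest among the lower-ranked regions was 56 bases. The 49-base site had signal 11.06 at rank 3098 in replicate 1 and 11.74 at rank 442 in replicate 2.

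In members the motif was most frequent around the summits, over a stretch of several bins. In 50 bp bins, 15.03% of members had GAGAGA in the bin just beyond the summit and 13.2% in each of the 2 bins before it, while bins 400 to 500 bp away held it in 1.53 to 4.91% of members. The bins from 100 to 150 bp and from 150 to 200 bp beyond the summit still held it in 11.96% and 8.59%. The lower-ranked regions stayed between 3.32 and 4.41% over the same 1000 bp. CTGCGTC showed a like profile, with 4.29% of members in the bin just beyond the summit.

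**Figure D2:**
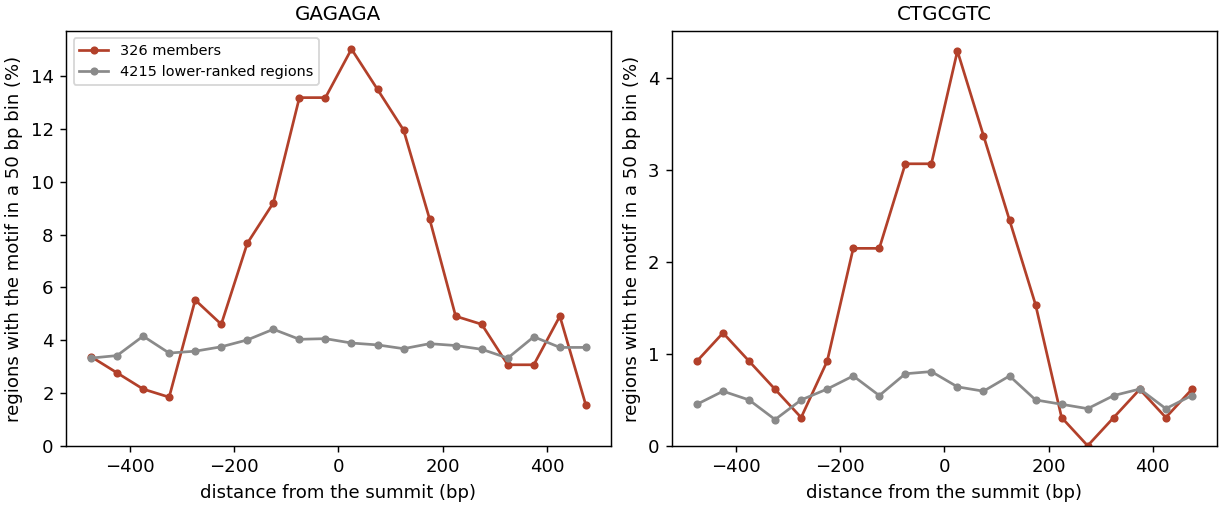
Share of regions with GAGAGA (left) or CTGCGTC (right) in each 50 bp bin, against the distance from the summit in bp, for 326 members (red) and 4215 lower-ranked regions (grey). The members peak at 15.03% for GAGAGA and 4.29% for CTGCGTC just beyond the summit, while the lower-ranked regions run flat.

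Of the other motifs, 3 were more frequent in members with intervals that did not meet. CTGCGTC, a motif known from worm promoters, was in 40 members (12.3%, 8.91 to 16.3%) against 2.59% of lower-ranked regions (2.13 to 3.11%). The replicate lists gave 11.1% against 2.70% and 10.1% against 2.81%. It was carried by the members at ranks 83 and 154 named above and by rank 173, between chw-1 and egl-9, which encodes the hydroxylase that controls hypoxia-inducible factor. GCGCGC was in 22 members (6.75%, 4.28 to 10.04%) against 1.76%, the highest of them at ranks 80, 183 and 271. For it the replicate lists gave 5.90% against 1.73% in replicate 1 and 5.23% (3.02 to 8.35%) against a share with an interval of 1.17 to 1.89% in replicate 2. CACGTG, the E-box bound by basic helix-loop-helix proteins, was in 23 members (7.06%, 4.53 to 10.4%) against 2.92% (2.43 to 3.47%). For CACGTG the replicate 1 list gave 6.56% against 3.15%, and the replicate 2 list gave 5.23% (3.02 to 8.35%) against 3.13% (2.65 to 3.66%), with intervals that met. Its highest sites were rank 168 between gdh-1 and tgt-1, rank 187 between mstr-1 and nars-1, and rank 233, 21 bp beyond the 3' end of cox-5B, a cytochrome oxidase subunit gene. GAGAGA and CTGCGTC occurred together in 25 members (7.67%) and 1.33% of lower-ranked regions.

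The nuclear receptor half-site AGGTCA was in 21 members (6.44%) against 5.31% of lower-ranked regions, with intervals that met. The strongest members with it were rank 76 at sls-2.2, rank 216 near din-1, which encodes a corepressor that binds the nuclear receptor DAF-12, and rank 226 beside the collagen gene col-3. AAGTCA was at 7.98% against 8.73%, and the GATA site TGATAA at 16.6% against 16.9%. Counting these, 9 motifs had intervals that met, which does not show that their shares are equal. On the other side, TTTCAG, the sequence of the worm splice acceptor, was in 57 members (17.5%, 13.5 to 22.05%) against 32.7%, and a tract of 8 A in 71 (21.8%) against 30.1%. For TTTCAG the replicate lists differed by less, 26.2% against 33.4% in replicate 1 and 25.5% against 31.1% in replicate 2, where the intervals met.

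**Figure D3:**
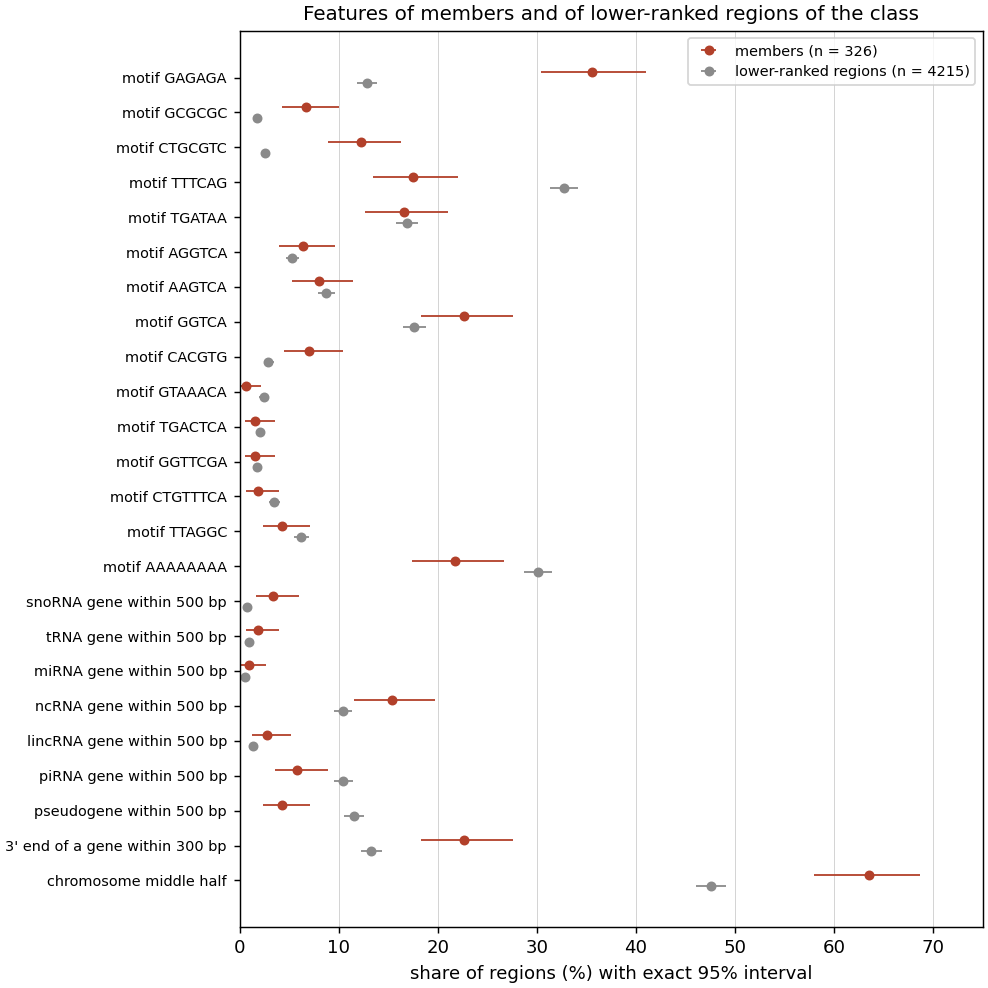
Share of regions in percent with exact 95% intervals for each motif within 100 bp of the summit, each gene type near the summit, nearness of a 3' end and position in the middle 50% of the chromosome, for members (red, above) and lower-ranked regions (grey, below). GAGAGA stands at 35.6% of members and 12.9% of lower-ranked regions, while AGGTCA intervals overlap.

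Base composition moved with these motifs. The median GC content was 38.1% in members (quartiles 32.3 and 45.3) and 33.8% in lower-ranked regions (29.4 and 38.8). It was 60.7% in the strongest window printed above and 24.9% in that of the lowest-ranked member. Members held a mean of 7.41 CpG dinucleotides per window against 5.76. When all regions of the class were split into 3 groups of like size at a GC content of 30.85 and 37.3%, GAGAGA was in 57.4% of the 169 GC-richest members (49.6 to 65.0%) against 24.5% of lower-ranked regions (22.2 to 26.97%). In the middle group the shares were 15.6% (8.77 to 24.7%) against 11.4%, and in the group of lowest GC 7.46% (2.47 to 16.6%, 5 members) against 4.03%, with intervals that met in both. In the GC-richest group CTGCGTC was in 21.3% of members (15.4 to 28.3%) against 5.98% (4.76 to 7.41%). In the middle group it was in 2.22% against 1.90%, and its intervals met there and in the group of lowest GC. For CACGTG the intervals met in all 3 groups, with 8.88% against 4.91% in the GC-richest. Members with GAGAGA had a median signal of 19.48 and members without it 17.97. In replicate 2 the median rank was 1893 for members with GAGAGA and 4647 for members without it, and in replicate 1 it was 1202 and 2033. Whether GC content itself had a part in the signal was not tested.

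Composition changed along the ranking. GAGAGA was in 54.2% of the 72 members in ranks 1 to 500 (interval 42.0 to 66.0%), 32.9% from there to rank 1000, 29.2% to rank 2000, 20.6% to rank 5000, 12.7% to rank 10000 and 11.6% beyond. Median GC in the same bands was 44.5, 38.1, 35.3, 34.8, 33.8 and 33.3%. The promoter regions followed a like course, with GAGAGA in 30.7% of the 697 autosomal promoter regions in ranks 1 to 2000 (27.3 to 34.3%) and 14.2% of the 6154 lower, and the interval of the first met that of the members. CTGCGTC was in 10.9% of promoter regions in ranks 1 to 2000 against 3.25% of those below, and GCGCGC in 8.75% against 2.52%. These motifs were thus raised in both classes. CACGTG differed in promoter regions by less, at 4.16% in ranks 1 to 2000 and 3.87% of those below, but the difference between the classes was not tested. The intergenic class itself kept a nearly even share of all autosomal regions, 20.2% in ranks 1 to 500 and 20.4% beyond rank 10000, while promoter regions were 54.9% and 29.2%.

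**Figure D4:**
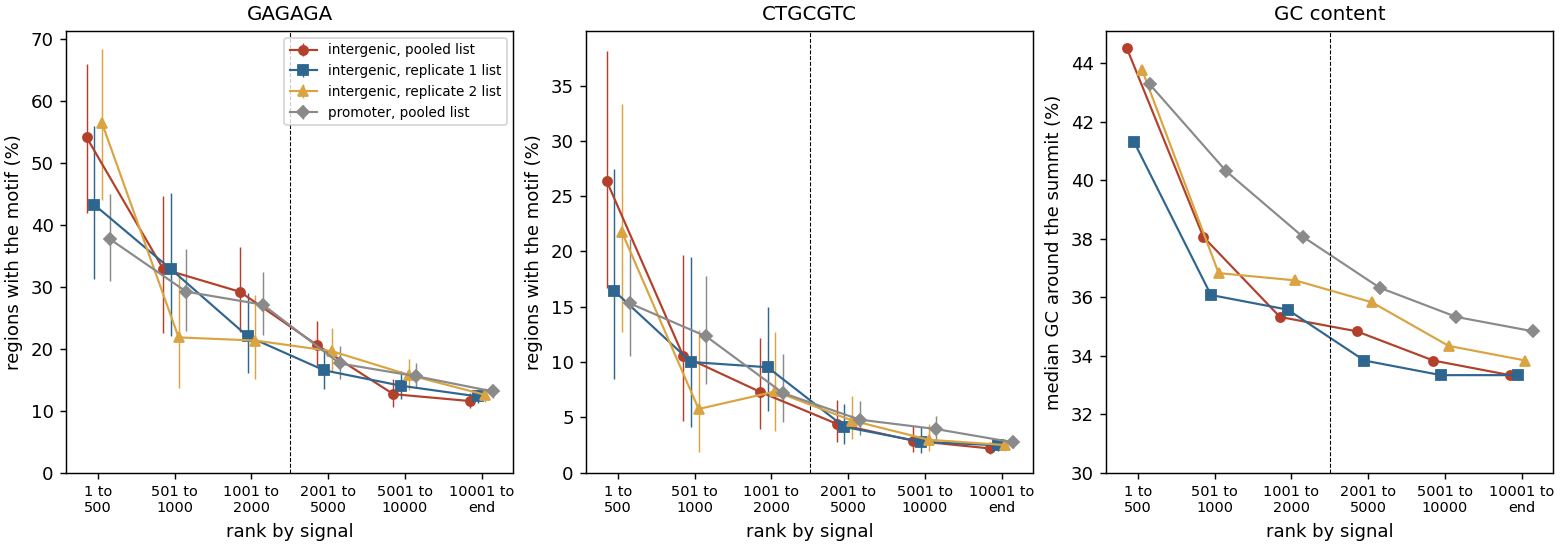
Share of regions with GAGAGA (left) and CTGCGTC (middle), in percent with exact 95% intervals, and median GC in percent (right) by rank band for intergenic regions away from promoters of the pooled list and of each replicate list and for promoter regions of the pooled list. The dashed line marks rank 2000, the limit for members, and GAGAGA in the pooled intergenic regions falls along the bands, 54.2% in the first and 11.6% in the last.

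Members were spread over all autosomes, with 62 on chromosome I, 49 on II, 64 on III, 80 on IV and 71 on V. GAGAGA was more frequent in members than in lower-ranked regions on each of the 5, from 48.4% against 14.2% on chromosome I to 28.6% against 15.1% on chromosome II, where the intervals met. The middle of the chromosomes, the gene-rich part in this species, held more of them. The middle 50% of chromosome length held 207 members (63.5%, 58.0 to 68.7%) against 47.6% of lower-ranked regions (46.1 to 49.1%), and the replicate lists gave 58.0% against 47.2% and 60.5% against 49.6%. GAGAGA was about as frequent in members of the outer parts (36.97%) as in members of the middle (34.8%).

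**Figure D5:**
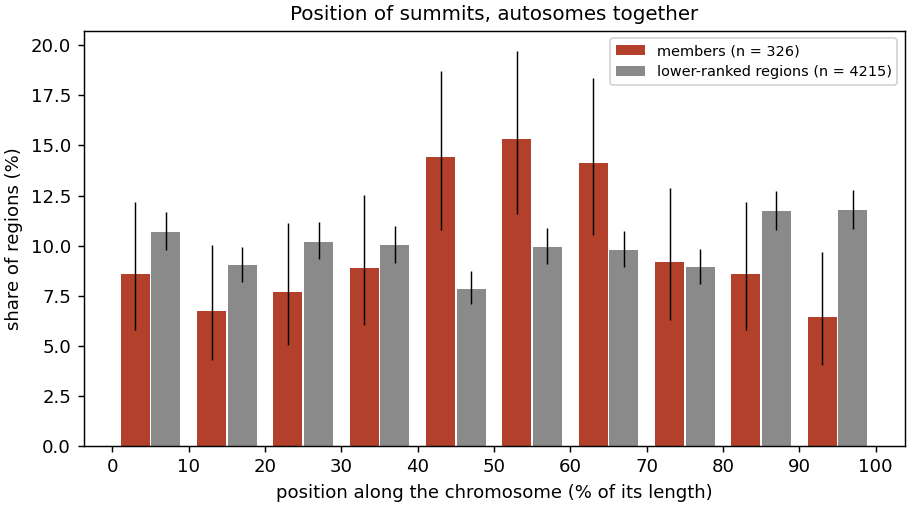
Share of summits in each 10% of chromosome length, in percent, all autosomes together, for members (red, left bars) and lower-ranked regions (grey, right bars) with exact 95% intervals. The stretch from 50 to 60% holds 15.3% of members and 9.94% of lower-ranked regions.

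Members also lay nearer to genes than lower-ranked regions of the class in the pooled list. The gap between flanking protein-coding genes had a median length of 5595 bp in members and 7019 bp in lower-ranked regions, and the nearest transcript start was at a median of 2058 bp against 2570 bp. A start lay within 2000 bp of 48.2% of members (42.6 to 53.7%) against 36.5% (35.1 to 38.0%). In the replicate lists this was 43.9% against 37.1% and 40.2% against 36.6%, with intervals that met in both. A 3' end of a protein-coding gene lay within 300 bp of 74 members (22.7%, 18.3 to 27.6%) against 13.3% (12.3 to 14.4%), with 22.3% against 13.5% in the replicate 1 list and 18.6% against 12.6% in the replicate 2 list. Besides swt-3 and cox-5B, this held for nuo-4, a gene of respiratory complex I, 95 bp from rank 234, for atp-1, the ATP synthase alpha subunit gene, 33 bp from rank 389, and for pck-1, the gluconeogenic enzyme phosphoenolpyruvate carboxykinase, 217 bp from rank 180. These 3 were named after their values were seen. Promoter regions had a 3' end within 300 bp in 17.2% of cases in ranks 1 to 2000 against 11.55% of those below. Among 32 members at 5000 bp or more from any start, GAGAGA was in 46.9% (29.1 to 65.3%) against 10.9% of 718 lower-ranked regions. Soft-masked sequence covered a median of 24.6% of the window in members and 37.8% in lower-ranked regions. Members flanked by 3' ends on both sides were 12.6%, against 14.8%.

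Some gaps held several members. The 326 lay in 293 gaps, of which 28 held at least 2 members and 61 members in all, so members of 1 gap are not independent sites. The gaps between rer-1 and F46C5.10 and between F54F12.1 and Y39E4B.6 held 4 each, and the gap between Y49A3A.4 and the homeobox gene unc-39 held 3. The cutl-22/cmd-1 gap held ranks 39 and 200, and the din-1/ghi-1 gap ranks 216 and 325.

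Genes for small structural RNAs and microRNAs lay within 500 bp of 22 members (6.75%, 4.28 to 10.04%) against 2.44% of lower-ranked regions (2.00 to 2.96%). The replicate lists gave 4.92% against 2.29% in replicate 1 and 6.21% against 1.86% in replicate 2. The largest class was snoRNA genes, whose products guide modification of ribosomal RNA, beside 11 members (3.37%, 1.70 to 5.96%) against 0.759% (0.520 to 1.07%). In the replicate 1 list snoRNA genes lay beside 6 of the regions chosen by the same rule (1.97%, 0.725 to 4.23%) against 0.650% (0.445 to 0.916%), with intervals that met, and in the replicate 2 list beside 10 (3.27%) against 0.549%. The strongest were T19B4.8 at rank 270, T26A8.6 at rank 278 and K07C10.2 at rank 317, and D2023.18 was counted beside 2 members. Transfer RNA genes lay beside 6 members (1.84%) against 0.973%, with intervals that met, and the strongest of the 6 was rank 259. The 3 members near microRNA genes were rank 151 by cel-mir-52, rank 359 at 301 bp from cel-mir-48, a let-7 family member that times larval development, and rank 1151 at 97 bp from cel-mir-80. The cel-mir-48 site had signal 12.15 at rank 2136 in replicate 1 and 14.29 at rank 219 in replicate 2. Single members lay by sls-2.2 and by rrn-4.16, a ribosomal RNA gene.

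Long and other non-coding RNA genes were also counted. An ncRNA gene lay within 500 bp of 50 members (15.3%, 11.6 to 19.7%) against 10.4% (9.53 to 11.4%). In the replicate lists this was 13.4% against 9.64% and 13.7% against 10.2%, with intervals that met in both. A lincRNA gene lay within 500 bp of 9 members (2.76%) against 1.40%, with intervals that met. The summit was inside an annotated ncRNA gene in 15 members (4.60%, 2.60 to 7.48%) against 1.97% (1.57 to 2.44%), and inside a lincRNA gene in 6 (1.84%) against 0.949%, where the intervals met. For ncRNA genes the replicate 1 list gave 4.59% against 1.79%, and the replicate 2 list gave 3.27% (1.58 to 5.93%) against 2.22% (1.82 to 2.68%), with intervals that met. The 20 members inside either type had a median signal of 24.47, and 12 of them held GAGAGA. They include ranks 39 and 68 and, in linc-129 near sca-1, the gene of the muscle calcium pump, rank 205. Pseudogenes and piRNA genes were less frequent near members in the pooled list. A pseudogene lay within 500 bp of 14 members (4.29%, 2.37 to 7.10%) against 11.5% (10.6 to 12.5%), and a piRNA gene of 19 (5.83%, 3.55 to 8.95%) against 10.5% (9.55 to 11.4%). The replicate lists differed by less, with a pseudogene by 8.20% against 11.1% in replicate 1, where the intervals met, and 8.50% against 13.6% in replicate 2. A piRNA gene lay by 9.51% against 10.8% and 7.84% against 10.5%, with intervals that met in both.

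Of 15 families of flanking protein-coding genes, 1 had intervals that did not meet when counted per region, the nuclear hormone receptors. They flanked 22 members (6.75%, 4.28 to 10.04%) against 3.61% of lower-ranked regions (3.06 to 4.21%). Several shared a gap, and counted per gap the shares were 17 of 293 (5.80%, 3.42 to 9.13%) against 3.15% (2.48 to 3.93%), intervals that met. In the replicate 1 list no such difference was seen, at 3.61% against 3.59%, while replicate 2 gave 5.88% against 3.72%. The strongest of these sites were beside nhr-204 at rank 328, nhr-88 at rank 333 and nhr-21 at rank 366, which are receptors of the family to which NHR-237 belongs. Chemoreceptor genes flanked 14 members (4.29%, 2.37 to 7.10%) against 7.47% (6.697 to 8.31%), with intervals that met. Counted per gap, their shares were 14 of 293 (4.78%, 2.64 to 7.89%) against 9.11% (7.98 to 10.3%), intervals that did not meet. The replicate lists, counted per region, gave 5.57% against 7.51% and 3.60% against 8.28%. C-type lectins flanked 7 members (2.15% against 1.33%) and cuticle collagens 6 (1.84% against 1.19%). Ribosomal protein, histone, UDP-glucuronosyltransferase, glutathione S-transferase and major sperm protein genes flanked 0 of 326 members. Their shares of lower-ranked regions were 0.688, 0.0712, 0.261, 0.0712 and 0.190%, in that order. Taken as 3 counts, a count of 0 leaves room for 0.920% of members, and the exact interval reaches 1.125%. Each of those shares is below both limits, so the counts of 0 show no difference. In the replicate 2 list the same rule gave 4 regions beside ribosomal protein genes (1.31% against 0.613%) and 1 beside a major sperm protein gene.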

How the data were processed

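NHR-237 was measured by ChIP-seq in 2 biological replicates of whole L4 worms. Per the file headers and the labels, the authors deposited ce11 lists of regions for each replicate, for both alignments together and for the regions that passed IDR. The deposited lists give a signal and a −log10 q value per region. Not given in the sources used here are the scale of the signal, the aligner and the peak caller. The notes deposited with the lists name a further input file beside the alignments, and the labels name a possible control experiment, so how far the signal is corrected for input is unknown. Read counts are not among the columns, which leaves the depth unknown, and intervals cover the count of regions only. Ranks, summits and coordinates were taken from the lists as deposited.

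The regions of the pooled list were annotated with Ensembl release 115 (WBcel235, the same assembly as ce11), and sequence and soft-masking came from RefSeq. Soft-masking is the only repeat annotation used. Each motif was searched within 100 bp of the summit on both strands, counting a region once. GAGAGA windows can also hold AGGTCA or CTGCGTC, and every AGGTCA is also a GGTCA. Words of 24 bases were called repeated where they occur elsewhere in the genome. Shares carry exact Clopper-Pearson 95% intervals, which treat regions as independent although neighbours share gaps. No test of chance was run, because members were chosen on signal in the same 2 samples, and 2 replicates of 1 group give no comparison of conditions. Replicate error was read by applying the rule to each replicate list. Gene containment and promoter intervals were checked at random positions of chromosome V, and the search for repeated words on random sequence with planted repeats. The coverage of the exact interval was calculated. Motif counting and overlap between lists were not checked in this way. The analysis used Python 3.11.15, pandas 2.3.3, NumPy 2.4.6, SciPy 1.17.1 and matplotlib 3.10.9. The members, motifs and gene lists were chosen with earlier results of these data known. Named genes are those flanking the 12 members of the highest signal, the 3 members just inside and the 3 regions just outside rank 2000, up to 3 members of the highest signal near each class of RNA gene or with each motif described, and the strongest member on each autosome. Others were named after their values were seen.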

Additional observations from a re-analysis of the deposited data

How the results depend on the processing

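In every alternative run, members stayed above lower-ranked regions in the share with GAGAGA, the share with GCGCGC, base composition, RNA gene share, middle position and presence in the replicate lists, and below them in gap length. The share between 3' ends was 15.4% against 15.2% in the replicate 1 list alone, and the share with repeated words was above that of lower-ranked regions in 5 alternatives, at 0.614 to 2.78% of members against 0.569 to 0.996%. Stricter rank limits left 148 members at rank 1000 and 72 at rank 500. At those limits GAGAGA was in 43.2 and 54.2% of members, and median GC was 41.5 and 44.5%. Presence in both replicate lists was 85.1 and 94.4%, and nearness to RNA genes 10.1 and 12.5%. Overlap with IDR peaks was 18.9 and 36.1%, a rise fixed by the ranking, because the IDR peaks are ranks 1 to 237. GCGCGC was in 10.1% at rank 1000, and repeated words covered over 50% of the window in 2.78% at rank 500. A window of 50 bp on either side of the summit gave GAGAGA in 22.1% and GCGCGC in 3.68% of members, and 200 bp on either side 48.8 and 10.4%. Presence in both lists was 67.2% with 50% reciprocal overlap and 51.8% with summits within 100 bp. A promoter interval of 2000 bp upstream left 204 members, with 17.2% between 3' ends and a median gap of 6846 bp. A narrower middle, 1 of 3 equal parts of the chromosome, held 43.9% of members against 30.6%. Using 1 replicate list alone gave GAGAGA in 29.2 to 29.4% of members, a median GC of 36.3 to 38.3% and a median gap of 5712 to 6436 bp. Keeping only the strongest region per gap, an alternative chosen after seeing the data, gave GAGAGA in 37.2% of members against 12.9%, a median GC of 38.3% against 33.3% and 63.5% against 49.2% in the middle 50%. No paired analysis was possible because there is only 1 group. Depth is unknown, so a member absent from a replicate list may lie below what that sample could show.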

Other observations

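Of 2080 words of 6 bases counted on either strand, those whose share differed most between members and lower-ranked regions were GA-rich where members were higher and AT-rich where members were lower, and both differences were of like size. The words were picked out after their values were seen. Among those higher in members, AGAGAG was in 32.2% of members and 10.8% of lower-ranked regions, AGAGAA in 39.6% and 20.1%, and CGTCTC in 19.0% and 5.74%. Among those lower in members, AAAATT was in 48.8% of members and 70.4% of lower-ranked regions, ATTTTC in 34.4% and 54.4%, and AAATTT in 31.9% and 50.9%. Replicate lists taken alone gave AAAATT in 52.1% against 71.6% and 51.3% against 67.3%, and AGAGAG in 25.6% against 11.0% and 26.1% against 11.2%. At least 1 of the GA repeat GAGAGA, the promoter motif CTGCGTC and the word GCGCGC was in 139 members (42.6%) and in 15.4% of lower-ranked regions, which leaves 187 members with none of the 3, of median signal 17.86.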
